A study of Mus musculus with 20 samples.

Results

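The genes described here write, copy, remove or protect DNA methylation: the DNA methyltransferases Dnmt1, Dnmt3a and Dnmt3b, their cofactors Uhrf1 and Dnmt3l, the TET dioxygenases Tet1, Tet2 and Tet3, and the zinc finger gene Zfp57. They were taken by name, with earlier results of these data known. All 9 have a row in each of the 3 deposited gene count tables and are 9 of the 23853 gene symbols that the tables share. RNA was sequenced from male mouse germ cells, sorted by flow cytometry on a green fluorescent protein, on a mixed strain background. Cells came from animals heterozygous for Tex15 (Tex15+/-) and from Tex15 knockouts (Tex15-/-) at embryonic day 16.5 (e16.5), embryonic day 18.5 (e18.5) and postnatal day 2 (d2). Each genotype had 3 libraries per embryonic age and 4 at d2, 20 in all, described by the submitters as biological replicates. The controls carry 1 mutant allele, so wild-type cells are not part of the comparison, and the labels used here do not say what drives the fluorescent protein.

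In the fetal testis, male germ cells pass through a time of low DNA methylation, stop dividing and then receive new methylation before birth. DNMT3A and its catalytically inactive partner DNMT3L lay down much of it, DNMT3B is a second de novo enzyme, and in mice DNMT3C acts on young transposon promoters. DNMT1 copies methylation onto the new strand after replication, and UHRF1 brings it to hemimethylated DNA. TET enzymes oxidise 5-methylcytosine, the first step of active demethylation and of dilution through division. ZFP57 binds a methylated motif at imprinted regions and recruits TRIM28, which helps to keep their methylation in the early embryo. TEX15 works with the piRNA pathway that directs methylation to transposons in these cells.

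Libraries held 14328826 to 31496510 counts, of which 7775062 to 14202847 fell on genes and the rest on repeats. Levels are given as CPM, the counts divided by library size on the usual scale, with 1 scaling over all 20 libraries. Tex15 itself lay between 608 and 2123 CPM in the 10 heterozygous libraries and between 1.69 and 5.38 CPM in 9 of the 10 knockout libraries. The exception was knockout replicate 2 at d2, with 101 CPM from 799 counts, so it is called below the library labelled knockout replicate 2. Germ cell markers summed to 4311 to 7777 CPM in every library and included Ddx4 and Dazl. Markers of other testis cells were lower: the Sertoli list summed to at most 101 CPM, the stroma list to at most 351 CPM and the endothelial list to at most 444 CPM, led by Vwf at e16.5. The Leydig list summed to 12.8 to 110.9 CPM, with Insl3 at 0 in all libraries, the macrophage list to 29.8 to 109 CPM, and the red blood list to 3.29 to 21.5 CPM, with the globin genes Hbb-b1 and Hba-a1 at 0.

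The genes that moved furthest with age, Uhrf1 upward and Dnmt3l downward, differ in the sequence before an annotated start. Below are the 250 bases before the start of one RefSeq promoter of each (GRCm38.p6, plus strand), chosen because no annotated exon of the gene lies in either window. Capitals mark a match to an E2F core motif, the binding letters of factors that act at S phase genes. Uhrf1 is at chr17:56304063-56304312 and Dnmt3l at chr10:78049592-78049841.
Uhrf1: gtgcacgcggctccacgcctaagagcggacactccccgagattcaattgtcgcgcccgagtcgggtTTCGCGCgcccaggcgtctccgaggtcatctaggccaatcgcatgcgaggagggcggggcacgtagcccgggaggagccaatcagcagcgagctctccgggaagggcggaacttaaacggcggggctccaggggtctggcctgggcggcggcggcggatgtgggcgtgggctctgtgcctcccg
Dnmt3l: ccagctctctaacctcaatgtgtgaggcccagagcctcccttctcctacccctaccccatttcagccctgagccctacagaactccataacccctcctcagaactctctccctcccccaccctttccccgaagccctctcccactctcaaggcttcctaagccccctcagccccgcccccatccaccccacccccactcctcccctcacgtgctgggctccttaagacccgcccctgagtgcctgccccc

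The Uhrf1 window held 30 CpG dinucleotides, more than 94.06% of 32841 promoter windows of this length, and 1 motif match, 184 bases before the start. The Dnmt3l window held 4 CpGs and no match, and the median over all windows was 6 CpGs. The window of Dnmt3l start 3, also free of exons, held 3 CpGs and no match. The search took 4 motifs of 7 letters on either strand: the first was TTCCCGC, the next began alike and read TTGGCGC, another was TTCGCGC, as in the Uhrf1 window, and the last was TTGCCGC. At least 1 of them was found in 7.886% of all windows. Each of the 4 motifs holds a CpG, and the share among windows as rich in CpG as that of Uhrf1 was not counted. The 9 genes matched 18 annotated starts, and matches lay before 3 of them: both Uhrf1 starts and Dnmt1 start 3, whose window held 2 matches but also overlapped annotated exons by 166 bases. CpG number ran from 51 for Tet2 and 40 for the second Dnmt3a start down to 2 for the first Dnmt1 start. From e18.5 to d2 both Tet2 and Dnmt3a fell. Dnmt3b, with 21 CpGs and no match, rose, as did Uhrf1 and Dnmt1, which had matches. Gene counts do not show which start these cells used, and a match is a run of letters, not a shown binding site.

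**Figure D1:**
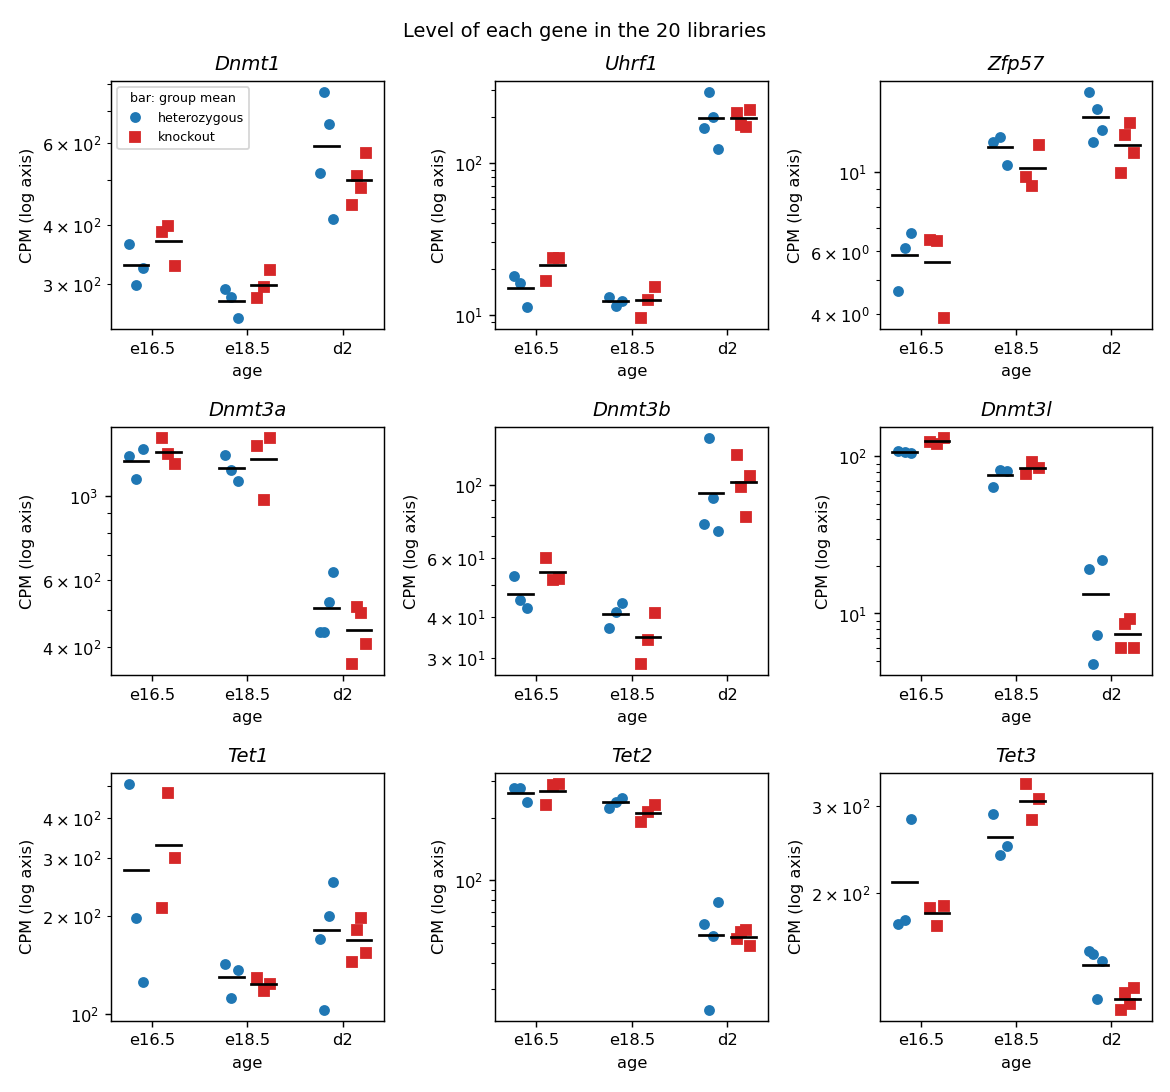
Level of each of the 9 genes in every library, in CPM on a log axis, by age and genotype. Points are libraries and bars are group means; from e18.5 to d2 the points of both genotypes rise together for Uhrf1, Dnmt1 and Dnmt3b and fall together for Dnmt3l, Tet2, Dnmt3a and Tet3.

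Between e18.5 and d2 the set split in 2 directions in heterozygous germ cells. Uhrf1, Dnmt1 and Dnmt3b rose, Dnmt3l, Tet2, Dnmt3a and Tet3 fell, and Tet1 and Zfp57 did not pass the test. That is 3 members called higher and 4 called lower of 9 (edgeR quasi-likelihood test, Benjamini-Hochberg adjusted p under 0.05). Over all 18619 genes tested, 24.1% were called higher and 27% lower, 51.2% in all, so a call at this step is common. The members' median log2 change was 0.28, against -0.08 for all genes. All 9 passed the filter on low counts in every comparison, and these 7 calls were made in each of 13 other settings of the analysis. The d2 libraries lie in a table with a slightly different gene set, and age and table cannot be told apart. In sorted cells pooled as bulk RNA, fewer cells of a type and less RNA per cell cannot be told apart either. Markers of other cells moved over the same step: the Sertoli sum went from 60.7 to 62.7 CPM at e18.5 to 85.5 to 101 CPM at d2, with 4 of 11 tested markers called higher (Amh 12.6-fold, Sox8 5.01-fold, Sox9 2.45-fold and Wt1 2.11-fold) and 0 lower. The endothelial sum went from 176 to 196 CPM to 108 to 150 CPM, with 3 of 6 called lower (Vwf 3.27-fold, Emcn 3.24-fold and Tek 2.12-fold) and 1 higher (Kdr 2.32-fold). Other lists had calls both ways. Star was 2.38-fold higher and Cyp11a1 13.7-fold lower (Leydig). Dcn was 5.67-fold higher and Lum 5.45-fold lower (stroma), and Cd68 was 3.55-fold higher and Adgre1 10.5-fold lower (macrophage). The red blood sum went from 13.1 to 16.2 CPM to 4.36 to 7.95 CPM. Germ cell markers summed to 5448 to 6539 CPM at e18.5 and 4311 to 5027 CPM at d2. The part of any cell type in the members' changes was not tested.

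Among the maintenance genes, Uhrf1 was low before birth: heterozygous libraries 1 to 3 read 18.1, 16.2 and 11.3 CPM at e16.5, then 13.2, 11.5 and 12.5 CPM at e18.5. At d2 the 4 heterozygous libraries read 170, 289, 200 and 122 CPM. No d2 library overlapped an embryonic one, and Uhrf1 was 15.7-fold higher at d2 than at e18.5 (log2 change 3.97 ± 0.25 SE, adjusted p = 4.34e-12). Knockout cells gave nearly the same values. They read 9.60, 12.7 and 15.2 CPM at e18.5 and 213, 176, 170 and 223 CPM at d2, a 15.6-fold rise (adjusted p = 4.55e-12).

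Dnmt1 was already abundant in the embryo and rose less. Its heterozygous libraries read 365, 298 and 324 CPM at e16.5, 292, 281 and 254 CPM at e18.5, and 518, 768, 657 and 413 CPM at d2. The lowest d2 library thus stood above the highest embryonic one, and the level rose 2.13-fold from e18.5 (adjusted p = 1.69e-06). Knockout cells went from 280, 295 and 321 CPM to 441, 510, 481 and 569 CPM, a 1.67-fold rise (adjusted p = 1.71e-04). The rise of Dnmt1 did not differ between genotypes beyond its error (difference in log2 change -0.35, 95% interval -0.78 to 0.08).

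The de novo genes did not move as a block. Dnmt3a, the member with the highest CPM in the embryo, fell: heterozygous libraries read 1276, 1110 and 1330 CPM at e16.5, 1284, 1169 and 1094 CPM at e18.5, and 436, 436, 526 and 628 CPM at d2. The embryonic libraries lay within a narrow band, and all d2 libraries were below it. Dnmt3a was 2.34-fold lower at d2 than at e18.5 (log2 change -1.22 ± 0.14 SE, adjusted p = 1.43e-07). In knockout cells it fell 2.83-fold, from 1354, 973 and 1421 CPM to 361, 508, 490 and 407 CPM (adjusted p = 4.02e-09).

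Dnmt3l, which has no catalytic activity and stimulates DNMT3A, fell further and in steps. Its 3 heterozygous libraries lay between 105 and 109 CPM at e16.5, a spread of only 1.99 CPM (SD) around 107 CPM. At e18.5 they read 64.0, 82.1 and 80.7 CPM, all lower than at e16.5, a change that did not pass the test across all groups (log2 change -0.50, adjusted p = 0.305) and did when only those 2 groups were fitted (adjusted p = 0.0468). At d2 they read 19.2, 4.79, 7.28 and 21.8 CPM, 5.76-fold below e18.5 (adjusted p = 1.39e-06). Knockout libraries at d2 read 6.0, 8.58, 9.18 and 5.98 CPM, above the lowest and below the highest heterozygous libraries. From e18.5 Dnmt3l fell 11.5-fold in the knockout (adjusted p = 2.25e-08). The d2 values rest on few reads, with 56 counts in the lowest library.

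Dnmt3b ran opposite to both of its relatives. Heterozygous cells had 46.8 ± 5.51 CPM at e16.5 and 40.7 ± 3.59 CPM at e18.5 (SD, n = 3), and the d2 libraries read 76.2, 139, 91.1 and 72.6 CPM. These were all higher than any embryonic heterozygous library, and Dnmt3b rose 2.32-fold from e18.5 (adjusted p = 1.22e-05). In knockout cells the rise was 2.95-fold, from 28.8, 33.9 and 41.1 CPM to 123, 98.6, 79.8 and 107 CPM (adjusted p = 3.2e-07).

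Among the TET genes, Tet2 fell most after e18.5. It read 277, 279 and 239 CPM at e16.5 and 224, 239 and 250 CPM at e18.5 in heterozygous cells, then 61.7, 23.9, 54.2 and 78.6 CPM at d2. The decline from e18.5 was 4.37-fold (log2 change -2.13 ± 0.22 SE, adjusted p = 6.15e-08), and no d2 library reached the embryonic range. Knockout cells fell 3.95-fold, to 52.1, 56.2, 57.4 and 48.3 CPM (adjusted p = 1.22e-07).

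Tet3 fell less. Heterozygous libraries read 173, 176 and 283 CPM at e16.5, 289, 239 and 249 CPM at e18.5, and 153, 151, 122 and 146 CPM at d2. The embryonic ages overlapped and did not pass the test (log2 change 0.30, adjusted p = 0.183). Its fall after e18.5 was 1.82-fold (adjusted p = 1.85e-05) and, with library sizes taken from all counts, -0.52 on the log2 scale in place of -0.86 (adjusted p = 0.0109). In knockout cells Tet3 first rose 1.71-fold, from 186, 172 and 188 CPM at e16.5 to 332, 281 and 309 CPM at e18.5 (adjusted p = 4.03e-04). It then fell 2.52-fold to 116, 125, 119 and 128 CPM at d2 (adjusted p = 2.25e-08).

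Tet1 was the least settled member. Its heterozygous e16.5 libraries read 507, 197 and 126 CPM, while those at e18.5 lay between 112 and 142 CPM and those at d2 between 103 and 253 CPM. From e18.5 to d2 the change did not pass the test (log2 change 0.48, 95% interval -0.33 to 1.28, adjusted p = 0.311). In knockout cells all 4 d2 libraries, at 145 to 197 CPM, were above the 3 at e18.5, at 118 to 129 CPM. That difference, 0.45 on the log2 scale, had an adjusted p of 0.331 when all groups shared 1 estimate of spread and 0.0108 when only those 2 groups were fitted.

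Zfp57 had the lowest level of the set at e16.5, with 4.65, 6.13 and 6.76 CPM in heterozygous cells and at least 48 counts in every library. It rose before birth: at e18.5 the libraries read 12.2, 12.5 and 10.5 CPM, 2.01-fold higher (log2 change 1.00 ± 0.28 SE, adjusted p = 0.0143). At d2 they read 16.7, 12.2, 15 and 13.1 CPM, which did not differ from e18.5 beyond the error (log2 change 0.28, adjusted p = 0.382). The knockout showed the same first step, 1.85-fold (adjusted p = 0.0161). Both calls rest on single libraries: the adjusted p was 0.0902 without heterozygous replicate 1 at e16.5, and 0.116 without knockout replicate 3 at e16.5 or 0.0771 without knockout replicate 3 at e18.5.

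**Figure D2:**
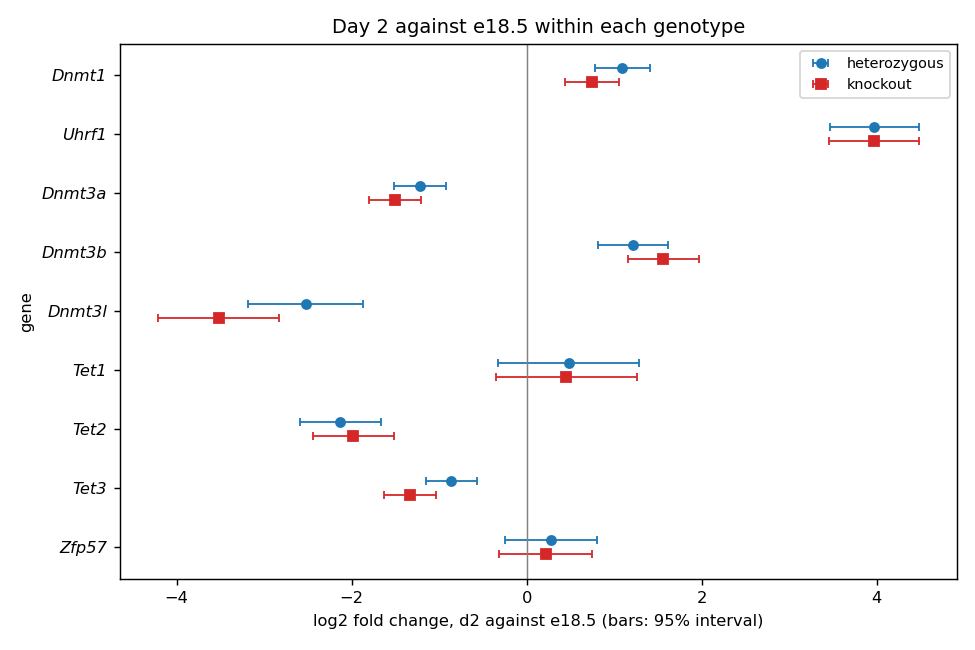
Log2 change from e18.5 to d2 of each gene in heterozygous and in knockout cells, with 95% intervals from the quasi-likelihood fit. The intervals of Uhrf1 lie furthest above 0 and those of Dnmt3l furthest below it, and those of Tet1 and Zfp57 cross 0 in both genotypes.

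The step from e16.5 to e18.5 was smaller. In heterozygous cells Zfp57 was the only member called, 1 of 9, where 7.63% of all genes were called higher, 10.2% lower and 17.8% either way. Tet1 fell by 1.08 on the log2 scale without passing (adjusted p = 0.0774), a value set by single libraries: it was -1.43 (adjusted p = 0.0125) without heterozygous replicate 3 at e16.5 and -0.31 (adjusted p = 0.592) without replicate 1. Leaving out replicate 3 also brought Tet3 past the threshold (log2 change 0.57, adjusted p = 0.00447, against 0.30 and 0.183 with it).

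In knockout cells 5 members were called at the same step, 2 higher and 3 lower, where 17.5% of all genes were called higher, 17.7% lower and 35.1% either way. Tet3 and Zfp57 rose, as given above. Tet1 fell 2.63-fold (adjusted p = 0.0148) from 212, 476 and 301 CPM to 129, 118 and 124 CPM. Uhrf1 fell 1.70-fold (adjusted p = 0.0159) and Dnmt3b 1.56-fold (adjusted p = 0.0167). All but the Tet3 call depended on 1 library: without knockout replicate 2 at e16.5 the adjusted p was 0.0848 for Tet1 and 0.0578 for Uhrf1, without replicate 3 at e16.5 it was 0.0517 for Uhrf1, and without replicate 1 at e18.5 it was 0.0718 for Dnmt3b and 0.0781 for Uhrf1. When only the 2 ages were fitted, 8 members were called, with Dnmt1, Dnmt3l and Tet2 lower as well. The share of all genes called in that fit is not given here, and the 35.1% does not apply to it. A call in 1 genotype and not in the other is no difference between them, and the test of that difference called 0 members.

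Over the whole interval from e16.5 to d2, 8 of 9 members were called in heterozygous cells, 4 higher and 4 lower, where 20.5% of all genes were called higher, 22.7% lower and 43.1% either way. Uhrf1 was 12.8-fold higher, Zfp57 2.43-fold, Dnmt3b 2.02-fold and Dnmt1 1.79-fold. Dnmt3l was 8.12-fold lower, Tet2 4.87-fold, Dnmt3a 2.45-fold and Tet3 1.48-fold. The Tet3 call was lost with library sizes from all counts (adjusted p = 0.456) and without heterozygous replicate 3 at e16.5 (adjusted p = 0.0719). In knockout cells the step from e18.5 to d2 gave the 7 calls listed above, 3 higher and 4 lower, where 25.3% of all genes were called higher, 29.7% lower and 55% either way.

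Scaling matters for the balance of all genes but not for these calls from e18.5 to d2. With library sizes from all counts the median log2 change of all genes in heterozygous cells moved from -0.08 to 0.26, and the 4494 higher and 5030 lower calls became 6354 and 3478. In knockout cells 4704 and 5534 became 6116 and 4124. From e16.5 to d2, 3811 and 4221 became 6121 and 2492.

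**Figure D3:**
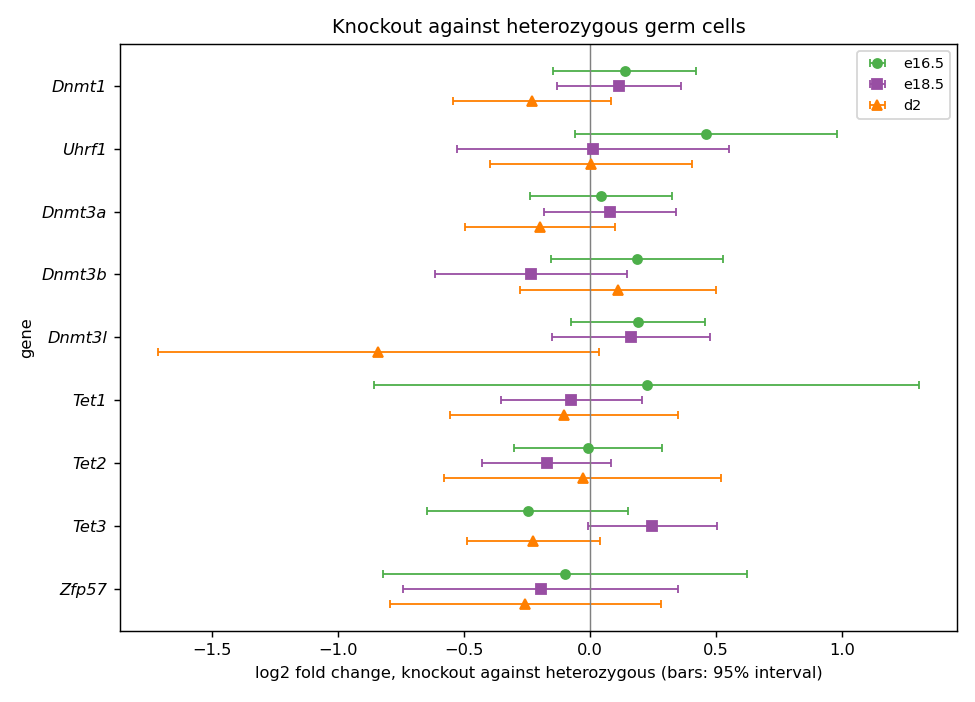
Log2 change of each gene in knockout against heterozygous cells at e16.5, e18.5 and d2, with 95% intervals from each age's own fit. Every interval crosses 0; the widest belong to Tet1 at e16.5 and Dnmt3l at d2.

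Loss of Tex15 left no called change in any of these genes. At e16.5, 0 of 9 members passed, where 0.0061% of 16384 genes did. At e18.5 it was 0 of 9, where 2.33% of 18075 genes passed. At d2 it was again 0 of 9, where 2.8% of 15343 genes passed, 311 higher and 119 lower, or 140 and 165 with library sizes from all counts. Tex15 itself passed at e16.5 and e18.5 but not at d2 (log2 change -4.97, adjusted p = 0.167), where the library labelled knockout replicate 2 held 799 counts of it. At each age 0 of 9 members had an unadjusted p under 0.05 in the edgeR test. Of all genes, 1266 of 16384, 2045 of 18075 and 2492 of 15343 did at e16.5, e18.5 and d2. DESeq2 and all other settings also called 0 members. The members' median log2 change was 0.14, 0.01 and -0.20 at the 3 ages, against -0.01, -0.01 and -0.02 for all genes. In simulated data at this depth, with changes planted in expressed genes, 65%, 75% and 62% of genes given a log2 change of 1 were recovered at the 3 ages. These shares do not carry over to the real tests, where the cut-off depends on how many genes change. At e16.5 the stroma marker Col3a1 had a log2 change of -1.30 and an adjusted p of 0.629. Its standard error was 0.35, near that of Zfp57 (0.33) and below that of Tet1 (0.47) at this age. The other members had smaller standard errors, up to 0.24 for Uhrf1. Changes of that size could thus be missed at e16.5 in members measured as loosely. Smaller ones in a member could be missed at any age.

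The intervals say how large a change the data allow. At e16.5 that of Dnmt3a ran from -0.24 to 0.33 on the log2 scale, that of Dnmt1 from -0.14 to 0.42 and that of Tet2 from -0.30 to 0.29. Tet1 was far less certain, from -0.86 to 1.31, with heterozygous libraries from 126 to 507 CPM and knockout libraries from 212 to 476 CPM. Uhrf1 had the smallest p at this age, with 16.8, 23.9 and 23.6 CPM in the knockout (log2 change 0.46, 95% interval -0.06 to 0.98, adjusted p = 0.653). Dnmt3l read 105 to 109 CPM in heterozygous and 120 to 131 CPM in knockout libraries. These groups did not overlap, but the share of all genes without overlap was not counted. The Dnmt3l difference of 0.19 on the log2 scale did not pass (95% interval -0.08 to 0.46, adjusted p = 0.688).

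At e18.5 the knockout libraries of Tet3 read 332, 281 and 309 CPM against 289, 239 and 249 CPM, overlapping by 1 library on each side (log2 change 0.25, 95% interval -0.01 to 0.50, adjusted p = 0.458). Uhrf1, at 9.60 to 15.2 CPM in the knockout and 11.5 to 13.2 CPM in heterozygous cells, differed by 0.01 (95% interval -0.53 to 0.55). The other members had log2 changes between -0.23 for Dnmt3b and 0.16 for Dnmt3l. Macrophage markers moved with genotype at this age: their sum was 88.1 to 109 CPM in the knockout and 29.8 to 42.8 CPM in heterozygous libraries, with 2 of 5 tested markers called, Mrc1 and Adgre1, both higher. Of 11 tested stroma markers 1 was called, Dcn, 3.31-fold higher (adjusted p = 0.0434). The defining markers C1qa and C1qb stayed below 1 CPM. The part of these cells in the Tet3 difference was not tested. Among germ cell markers Kit was called, 1.44-fold higher in the knockout (adjusted p = 0.0389).

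At d2 the largest difference of the set was in Dnmt3l, 1.79-fold lower in the knockout (log2 change -0.84, 95% interval -1.71 to 0.03, adjusted p = 0.333). The groups overlapped: the 4 knockout libraries, at 5.98 to 9.18 CPM, lay around heterozygous replicate 3 (7.28 CPM), above replicate 2 (4.79 CPM) and below replicates 1 and 4 (19.2 and 21.8 CPM). Heterozygous replicates 1 and 4 carry much of that value, which was -0.61 without replicate 1 and -0.48 without replicate 4. Without the library labelled knockout replicate 2 it was -0.92 (adjusted p = 0.315). Among germ cell markers Dazl was called at this age, 1.52-fold higher in the knockout (adjusted p = 0.0349). Of 8 tested Sertoli markers 1 was called, Sox9, 2.38-fold lower in the knockout (adjusted p = 0.0189), and of 6 endothelial markers 1, Vwf, 2.39-fold lower (adjusted p = 0.0355). The Sertoli sum was 85.5 to 101 CPM in heterozygous and 60.0 to 87.7 CPM in knockout libraries, the endothelial sum 108 to 150 CPM and 85.0 to 136 CPM, and their part in the Dnmt3l difference was not tested. Tet3 differed by -0.22 (95% interval -0.49 to 0.04) and Dnmt1 by -0.23 (95% interval -0.54 to 0.08), and Uhrf1 by 0.01 (95% interval -0.39 to 0.41).

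The knockout effect was also compared between ages within 1 model. From e16.5 to e18.5, 0 of 9 members passed, where 0.0967% of all genes did. Tet3 had an unadjusted p of 0.0374, with a knockout effect 0.47 higher on the log2 scale at e18.5 (95% interval 0.03 to 0.92, adjusted p = 0.751). The value was 0.17 without heterozygous replicate 3 at e16.5, the library with 283 CPM. From e18.5 to d2, again 0 of 9 passed, where 0.526% of all genes did. The knockout effect on Dnmt3l was lower at d2 (difference in log2 change -0.996, 95% interval -1.94 to -0.05, adjusted p = 0.344). That on Tet3 was also lower (difference -0.47, 95% interval -0.89 to -0.05, adjusted p = 0.309).

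**Figure D4:**
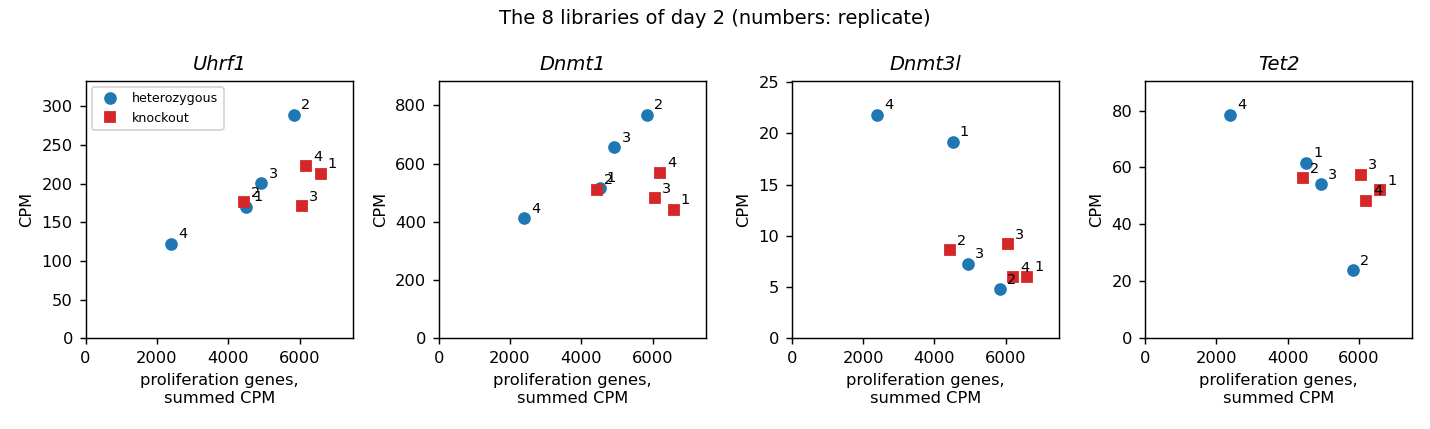
CPM of Uhrf1, Dnmt1, Dnmt3l and Tet2 in the 8 d2 libraries, against the summed CPM of 19 proliferation genes in the same library. Labels give the replicate; heterozygous replicate 4 has the lowest proliferation sum and heterozygous replicate 2 the highest of its genotype.

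The 4 heterozygous d2 libraries differed among themselves in an ordered way. Replicate 2 had the highest Uhrf1, Dnmt1 and Dnmt3b of its group and the lowest Dnmt3l, Tet1 and Tet2. Replicate 4 had the lowest Uhrf1 (122 CPM), Dnmt1 (413 CPM) and Dnmt3b (72.6 CPM) and the highest Dnmt3a (628 CPM), Dnmt3l (21.8 CPM), Tet1 (253 CPM) and Tet2 (78.6 CPM). In these 4 libraries the summed level of 19 proliferation genes ran in the same order as Uhrf1, Dnmt1 and Dnmt3b. Dnmt3l and Tet2 ran in the reverse of that order, and Dnmt3a, Tet1, Tet3 and Zfp57 followed neither. The sum was 4510, 5835, 4927 and 2389 CPM in heterozygous replicates 1 to 4. Mki67, a marker of dividing cells, read 1692, 1900, 1791 and 655 CPM. The sum of replicate 4 lay within the range of the embryonic libraries, 1133 to 2775 CPM, and the other 3 lay above it. The knockout d2 libraries summed to 6586, 4431, 6060 and 6193 CPM and did not show that order. Knockout replicates 1 to 4 read 441, 510, 481 and 569 CPM for Dnmt1, lowest where the sum was highest. They read 213, 176, 170 and 223 CPM for Uhrf1. The members varied less in the knockout, with an SD of 26.2 CPM for Uhrf1 against 70.3 CPM in heterozygous cells and 4.16 CPM for Tet2 against 22.9 CPM. The part of cell division in these differences was not tested.

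**Figure D5:**
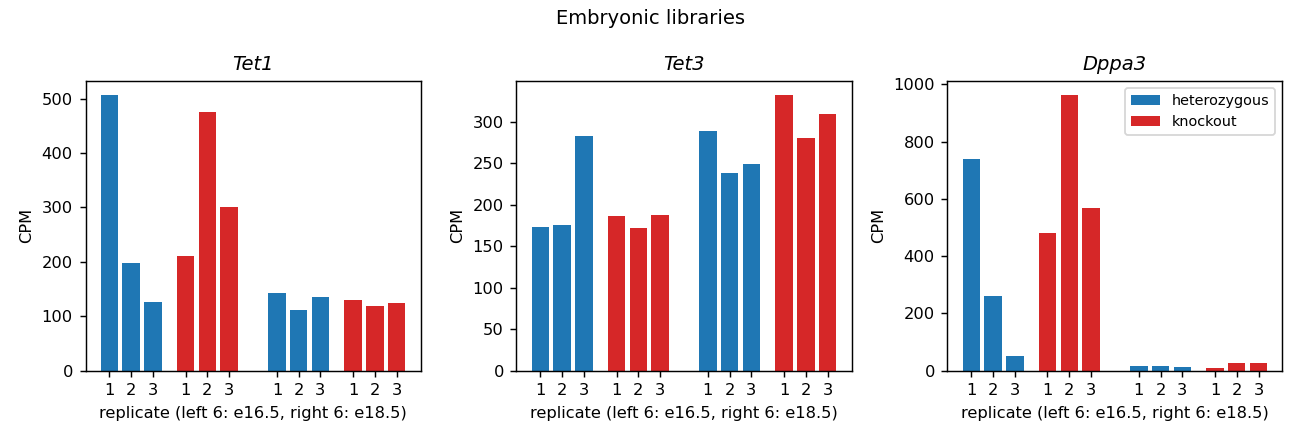
CPM of Tet1, Tet3 and Dppa3 in each of the 12 embryonic libraries, 1 bar per library. Heterozygous replicate 3 at e16.5 has the lowest Tet1 and Dppa3 and the highest Tet3 of the e16.5 libraries.

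The e16.5 libraries also differed among themselves. Heterozygous replicate 3 had 126 CPM of Tet1 and 283 CPM of Tet3, each within the range of the e18.5 heterozygous libraries. Tet3 was 172 to 188 CPM in all other e16.5 libraries. Dnmt3l in heterozygous replicate 3 was 105 CPM, above the e18.5 heterozygous libraries (64.0 to 82.1 CPM). Dppa3, a germ cell gene whose product shields DNA from TET3 oxidation in the zygote, read 740, 263 and 53.3 CPM in the heterozygous libraries and 480, 963 and 568 CPM in the knockout. At e18.5 it was 9.69 to 26.1 CPM in all libraries. The libraries with the most Tet1 in each genotype, heterozygous replicate 1 (507 CPM) and knockout replicate 2 (476 CPM), were also those with the most Dppa3. The labels give no finer staging of the embryos, so its part was not tested.

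The wider methylation pathway was read from 6 gene lists in the same fits. From e18.5 to d2 in heterozygous cells, 7 of 8 partners of maintenance methylation rose and 0 fell, with a median log2 change of 0.93, where 24.1% of all genes rose and 27% fell (median -0.08). Pcna, the sliding clamp that binds DNMT1, went from 30.8 ± 1.71 CPM (SD, n = 3) to 129.8 ± 27.6 CPM (SD, n = 4), a 4.20-fold rise. Hells, a chromatin remodeller needed for methylation of repeats, rose 2.33-fold, and Usp7, a deubiquitinase that binds both DNMT1 and UHRF1, rose 1.97-fold. Of the 19 proliferation genes, 18 rose and 0 fell over the same step, beside the same 24.1% and 27% (median log2 change 2.10).

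Of 6 tested genes that direct or permit de novo methylation 5 fell and 1 rose, against the same shares of all genes. Kdm1b, an H3K4 demethylase required for imprints in oocytes, went from 1934 ± 366 CPM (SD, n = 3) to 253 ± 37.1 CPM (SD, n = 4), a log2 change of -2.94 (adjusted p = 3.95e-13). Nsd1, which writes the H3K36 dimethyl mark read by DNMT3A, fell 2.17-fold, and Piwil4, the nuclear piRNA-binding protein MIWI2, fell 2.93-fold. Piwil4 had already fallen 2.40-fold from e16.5 to e18.5, as had Morc1, a transposon silencing ATPase, by 2.23-fold. Levels of Dnmt3a showed no such first step (log2 change -0.07, 95% interval -0.38 to 0.25).

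The other lists were mixed from e18.5 to d2, and their counts stand against the 24.1% of all genes called higher and 27% lower. Of 22 tested genes of demethylation and base excision, 4 rose and 4 fell, a smaller share than the 51.2% of all genes called. Ung, a uracil glycosylase, rose 5.20-fold and Neil2, a glycosylase of oxidised bases, fell 2.01-fold. Apex1, the main abasic site nuclease, dropped from 54.6 ± 4.79 to 2.50 ± 1.13 CPM, with at most 55 counts in any d2 library; age and table cannot be told apart here. Of 9 genes listed by family or domain as methyl-CpG readers, 2 rose and 4 fell, among them Mbd2 (2.11-fold higher) and Zbtb38 (2.50-fold lower). Whether the product of each listed gene binds methylated DNA was not checked. Of 9 genes of methyl donor synthesis, 5 rose and 1 fell: Shmt2 and Shmt1, which feed one-carbon units, rose 6.27-fold and 3.65-fold, and Mat2a, which makes S-adenosylmethionine, rose 2.44-fold. Of 7 partners of imprint protection, 2 rose and 2 fell, with Ctcf 1.76-fold and Smchd1 1.34-fold higher and Arid4b 1.39-fold lower.

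From e16.5 to e18.5 the lists gave fewer calls, as did all genes, of which 7.63% rose and 10.2% fell. Methyl donor genes fell in 4 of 9 and rose in 0, with Mtr, the methionine synthase, 2.26-fold, Shmt2 2.20-fold and Shmt1 1.74-fold lower. Imprint protection partners fell in 4 of 7 and rose in 0: Dppa3 (log2 change -4.49, adjusted p = 0.00183), Zfp445 (1.43-fold), a zinc finger gene that also protects imprints, and Trim28 (1.41-fold), the corepressor that ZFP57 recruits. Zfp57 itself rose over that step. Of 8 maintenance partners 1 fell, the DNA ligase Lig1 (1.79-fold), and 0 rose. Of 22 demethylation and base excision genes, 3 rose and 1 fell: Parp1 was 1.61-fold lower, Neil3 2.08-fold and Gadd45a 2.13-fold higher. Of 9 genes of the reader list, 2 rose and 1 fell, with Zbtb33 1.84-fold and Zbtb4 2.01-fold higher and Mbd1 1.75-fold lower.

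In knockout cells from e18.5 to d2, 6 of 8 maintenance partners rose and 0 fell, and 5 of 6 de novo targeting genes fell and 1 rose, where 25.3% of all genes rose and 29.7% fell. For the other lists the numbers higher and lower were 7 and 5 of 22 for demethylation and base excision, 4 and 4 of 9 for readers, 2 and 0 of 7 for imprint protection, and 6 and 2 of 9 for methyl donor synthesis. Between genotypes at 1 age, the 6 lists gave a single call: Mbd5, a methyl-CpG-binding domain gene, was 1.57-fold lower in the knockout at e18.5, at 238 ± 42.6 against 373 ± 9.47 CPM (SD, n = 3, adjusted p = 0.00647). That call had an adjusted p of 0.0634 without knockout replicate 3 and 0.0608 with all ages in 1 fit. None of the 19 proliferation genes was called between genotypes at any age.

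Ranked per length (CPM per kilobase of the longest RefSeq-linked transcript), the order of the members turned over at birth. At e16.5 in heterozygous cells Dnmt3a led with 128 ± 11.8 CPM per kilobase. Dnmt1 (59.4 ± 6.03) and Dnmt3l (58.6 ± 1.09) came next and did not differ beyond their spread, followed by Tet2 (28.8 ± 2.47), then Tet3 (19.3 ± 5.74) and Tet1 (19.3 ± 14.1), which also did not. Dnmt3b (10.8 ± 1.27), Uhrf1 (4.24 ± 0.986) and Zfp57 (2.94 ± 0.543) were lowest, all as SD with n = 3. At e18.5 the order of the first 5 was unchanged, with Uhrf1 last at 3.46 ± 0.235 CPM per kilobase.

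At d2 Dnmt1 led with 106 ± 28.1 CPM per kilobase (SD, n = 4). Uhrf1, at 54.5 ± 19.6, and Dnmt3a, at 52.3 ± 9.46, lay side by side within their spread. Dnmt3b followed at 21.9 ± 7.03, then Tet3 (13.1 ± 1.30) and Tet1 (12.6 ± 4.35). The last 3, Dnmt3l (7.28 ± 4.66), Zfp57 (7.16 ± 1.02) and Tet2 (5.95 ± 2.49), could not be ordered beyond their spread. Transcript lengths came from an annotation of another build than the counts, and isoform use was not measured.

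Each member's pattern over the 20 libraries was matched against 9574 expressed genes by Pearson's r of log2 CPM, given as a description: the libraries fall into 3 ages, so most of each r is the shared age course. The nearest genes were Fkbp1a (r = 0.992), Rbpms and Pomp for Uhrf1, and D17Wsu92e (0.951), Eif6 and Dgcr2 for Dnmt1. For Dnmt3b they were Mcm6 (0.965), Ndufa4 and Nme1, for Dnmt3a Kdm3a (0.986), Cry1 and Rnf214, and for Dnmt3l Tmem63b (0.983), Tsc1 and Crebrf. Tet2 was nearest to Crebrf (0.986), Jakmip2 and Brdt, and genes close to Tet3 included Ppl (0.957) and Dpp9. The loosest neighbours were those of Tet1, with Baz2b (0.922), Tead1 and Slc25a4, and of Zfp57, with Lmna (0.923), Dctn3 and Bhlhe40.

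Reads of overlapping genes may enter some values, since the sources used here do not say whether counting used strand. Dnmt3a overlaps the antisense gene Dnmt3aos, which had at most 15 counts in any library. Dnmt3l overlaps Aire on the opposite strand, at 0.563 to 12.3 CPM. In the heterozygous d2 libraries Aire read 2.33, 0.563, 2.08 and 4.92 CPM in replicates 1 to 4, where Dnmt3l read 19.2, 4.79, 7.28 and 21.8 CPM; the part of shared reads was not tested. Tet2 overlaps the antisense model Gm42567, and the other 6 members overlap no annotated gene.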

How the data were processed

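Gene counts were deposited by the authors as raw counts per gene symbol, 1 table per age. Per the submitters' processing notes, STAR, Bowtie, featureCounts, edgeR and the mm9 build were used; versions, strand setting and treatment of multi-mapping reads are not given in the sources used here. Libraries were made with NuGEN amplification kits, per the labels' protocols. The 1217 repeat rows of each table were left out. Genotypes were compared within each table, and ages in 1 fit of all 20 libraries over the 23853 shared symbols, with edgeR 4.0.16 (R 4.3.3): filterByExpr (minimum count 10, total 15), TMM scaling, robust quasi-likelihood F test, Benjamini-Hochberg adjustment over all genes tested, threshold 0.05. Standard errors are the log2 change divided by the root of F, and intervals are 95%. CPM comes from 1 TMM scaling of the 20 libraries.

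The members and lists were chosen with earlier results of these data known. Named genes are the 9 members, up to 3 called genes with the smallest p per list and comparison, and the 3 genes most correlated with each member (no Gm or Rik symbols, mean log2 CPM at least 3). A few genes that this rule names are not reported here. Dppa3, Mki67, the genes that overlap a member and the markers quoted by level were named after their values were seen. Alternatives were DESeq2 1.42.0, other scalings and filters, a replicate block, other sets of groups in the fit, and leaving out each library. Member counts per library ran from 48 (Zfp57) to 18767 (Dnmt3a). Only at e18.5 did every replicate number of the 2 genotypes deviate together, though weakly (r = 0.208, 0.124 and 0.159 over 9870 genes for numbers 1 to 3). Numbers 2 and 3 at e16.5 (0.146 and 0.148) and number 3 at d2 (0.161) had similar values. The remaining numbers at those ages were near 0 or negative. The labels do not say what a number shares. Replicates of a group differed by more than counting noise. Promoters came from RefSeq (GRCm38.p6), and transcript lengths and overlaps from GENCODE M21 (GRCm38), matched by symbol. The fits were tested on simulated data.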

Additional observations from a re-analysis of the deposited data

Results flagged for a closer look

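Tex15 read 100.768 CPM in the library labelled knockout replicate 2 at d2, far from the other 3 of its group (2.04 to 2.61 CPM). The gap took up 0.9942 of the group's range, above the 95% critical value for 4 samples. The summed level of the 8 maintenance partners (Hells, Pcna, Usp7, Uhrf2, Lig1, Cdca7, Dmap1 and 2810417H13Rik) was 1399.28 CPM in that same library, below the 1750 to 1777 CPM of the other 3, a gap of 0.928 of the range. Chance marks about 1 in 20 groups this way. None of the 9 members stood apart in a d2 group by the same measure, and groups of 3 were not examined.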

How the results depend on the processing

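All 7 calls per genotype from e18.5 to d2 were made under every alternative, and 0 members were called between genotypes under any. The alternatives that changed a count of calls by over 1.5 times were these. Between genotypes at e16.5, 22 genes were called with DESeq2, 2 with library sizes from all counts, 2 with no filter, 0 with all ages in 1 fit, and 1 to 25 when 1 library was left out (25 without heterozygous replicate 1), where the fit as designed called 1. At e18.5, 152 were called with all ages in 1 fit and 274 to 502 with 1 library left out, against 422 (274 without knockout replicate 2 and 281 without heterozygous replicate 2). At d2 the counts were 821 with DESeq2, 770 with all ages in 1 fit, and 187 to 573 with 1 library left out, against 430 (219 without heterozygous replicate 1, and 187, 209 and 235 without knockout replicates 1, 3 and 4). For e18.5 against e16.5, 2 heterozygous members were called with only the groups compared and 0 to 3 with 1 library left out (1740 to 4077 genes, the lowest without replicate 1 or 2 at e16.5). In knockout cells 8 members were called with only the groups compared and 3 to 5 with 1 left out. The share of all genes called with only the groups compared is not given here. Differences of the knockout effect between e18.5 and e16.5 numbered 69 with DESeq2, 72 with only the groups compared and 3 to 38 with 1 library left out, against 18, and between d2 and e18.5 387 with DESeq2 and 31 to 226 with 1 left out, against 98 (226 without the library labelled knockout replicate 2). The cause was not tested.

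With the replicate block, 1, 599 and 235 genes were called between genotypes at e16.5, e18.5 and d2. The same-numbered libraries had correlations of -0.411, 0.146 and 0.148 at e16.5 and 0.0453, -0.289, 0.161 and -0.188 at d2, so the numbers are not taken as pairs there. At e18.5 each library correlated best with its own number, and the block changed no call of a member. It turned the log2 change of Uhrf1 at e18.5 to -0.0099 and of Tet2 at d2 to 0.081.

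Members with differences near 0 between genotypes changed sign under some settings, none of them called. At e16.5 Tet2 was 0.013 with DESeq2, 0.083 with library sizes from all counts, 0.0089 with no filter and 0.015 with all ages in 1 fit, and Zfp57 was 0.0055 with library sizes from all counts. That scaling also gave -0.013 for Dnmt3a and -0.089 for Uhrf1 at e18.5, and -0.048 for Dnmt3b and -0.16 for Uhrf1 at d2. With 1 library left out, the ranges at e16.5 were -0.018 to 0.11 for Dnmt3a, -0.13 to 0.98 for Tet1, -0.070 to 0.0996 for Tet2, -0.38 to 0.034 for Tet3 and -0.25 to 0.11 for Zfp57. At e18.5 they were -0.020 to 0.23 for Dnmt3a and -0.15 to 0.17 for Uhrf1, and at d2 -0.16 to 0.25 for Uhrf1, -0.30 to 0.11 for Tet1 and -0.28 to 0.21 for Tet2. Between ages, Tet1 in heterozygous cells (d2 against e16.5) ranged from -0.96 to 0.16 and Dnmt3a in knockout cells (e18.5 against e16.5) from -0.18 to 0.070. Depth limits Dnmt3l at d2 and Zfp57 at e16.5 most, with as few as 56 and 48 counts in a library.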
